A study of Rattus norvegicus with 6 samples.

Results

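Neural progenitor and proliferation genes were examined in the forebrain of fetal rats, as a set of 7 genes picked by Ensembl identifier from the 17581 genes counted. The set comprised 4 markers of neural progenitors, Sox2, Pax6, Nes and Vim, and 3 markers of dividing cells, Mki67, Pcna and Cdk1. All 7 were in the table and all 7 passed the filter on low counts, which kept 13617 genes. The table lists identifiers alone, and the symbols used here came with the list of genes, not from the count table or the reference table.

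The samples were 3 control and 3 high-dose forebrains of Wistar rats, an outbred strain, each labelled male and taken on gestational day 18. Dams ate a food treat carrying vehicle (0 µg) or 1000 µg per day of FM550, a commercial flame retardant that mixes brominated with organophosphate chemicals, which the protocol equates with some 3.3 mg/kg each day. Dosing ran for 10 days from gestational day 9, and tissue was collected 4 hours after the last dose. The dose was set by an average colony weight and not by the weight of each dam, and the forebrain was microdissected from cryosectioned frozen heads, so a library holds every cell type of the dissected piece. No label says whether fetuses of a group came from separate litters, and the p-values therefore reflect the variation among these 6 libraries alone.

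In the fetal forebrain, radial glia line the ventricles, divide there and give rise to neurons and later to glia. SOX2 is a transcription factor that keeps neural stem cells undifferentiated, and PAX6 is a transcription factor of dorsal forebrain radial glia. Nestin (Nes) and vimentin (Vim) are intermediate filament proteins of radial glia, and vimentin is also made by vessel, meningeal and other mesenchymal cells. Ki-67 (Mki67) coats mitotic chromosomes and is present only in cycling cells, PCNA is the sliding clamp of the DNA polymerases, and CDK1 is the kinase that drives entry into mitosis. In whole tissue, fewer cells of a type and less RNA per cell cannot be told apart.

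Promoters of the 3 proliferation genes are printed here because the motifs searched are known from cell cycle genes, with that of Sox2 added because it is the denominator of the ratios given further on. Each window is from RefSeq on build GRCr8 (not the rn6 build of the counts) and covers 250 bases before to 50 bases after the annotated start, 5′ to 3′. Capitals mark matches on either strand to the core of the cell cycle homology region (TTTGAA), the CCAAT box bound by NF-Y (CCAAT) and an E2F site (TTTNGCGC).
Mki67 (chr1:199952544-199952843, minus strand): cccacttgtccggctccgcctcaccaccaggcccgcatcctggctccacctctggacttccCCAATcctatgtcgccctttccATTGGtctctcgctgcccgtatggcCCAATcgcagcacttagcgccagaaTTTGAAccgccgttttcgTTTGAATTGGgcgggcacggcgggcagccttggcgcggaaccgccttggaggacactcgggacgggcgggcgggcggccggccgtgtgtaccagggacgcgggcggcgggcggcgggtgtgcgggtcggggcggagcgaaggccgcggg
Cdk1 (chr20:19265043-19265342, plus strand): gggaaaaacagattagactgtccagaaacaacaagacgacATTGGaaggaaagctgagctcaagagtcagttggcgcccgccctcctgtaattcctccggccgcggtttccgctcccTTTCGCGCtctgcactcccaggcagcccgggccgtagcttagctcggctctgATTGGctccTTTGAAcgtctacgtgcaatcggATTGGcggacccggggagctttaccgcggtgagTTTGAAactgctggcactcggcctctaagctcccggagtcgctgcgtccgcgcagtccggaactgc
Pcna (chr3:139955771-139956070, minus strand): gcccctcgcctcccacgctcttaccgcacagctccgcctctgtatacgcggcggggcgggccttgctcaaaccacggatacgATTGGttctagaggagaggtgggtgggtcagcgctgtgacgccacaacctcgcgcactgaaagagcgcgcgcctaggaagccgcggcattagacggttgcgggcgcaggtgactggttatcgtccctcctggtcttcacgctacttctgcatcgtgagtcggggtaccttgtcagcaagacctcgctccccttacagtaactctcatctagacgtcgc
Sox2 (chr2:119464881-119465180, plus strand): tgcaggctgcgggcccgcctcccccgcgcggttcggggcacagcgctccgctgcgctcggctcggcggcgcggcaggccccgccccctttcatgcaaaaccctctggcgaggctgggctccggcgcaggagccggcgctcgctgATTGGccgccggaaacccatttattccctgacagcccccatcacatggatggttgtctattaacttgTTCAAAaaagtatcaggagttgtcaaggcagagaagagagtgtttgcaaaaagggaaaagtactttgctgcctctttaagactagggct

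Of all 33469 RefSeq promoter windows of this length, 18.3% held TTTGAA, 37.5% held CCAAT, 1.28% held TTTNGCGC and 0.108% held all 3. The Cdk1 window held all 3, with 2 matches to TTTGAA, 3 to CCAAT and 1 to TTTNGCGC, the last from position -133 to -126 relative to the start. The Mki67 window held 2 matches to TTTGAA and 4 to CCAAT, of which the TTTGAA match beginning at -99 and the CCAAT match ending at -90 overlapped. Pcna held 1 CCAAT match, at -168 to -164, and Sox2 held 1 match each to CCAAT and TTTGAA. Among the other members, Vim held 1 CCAAT match, Pax6 held 1 TTTGAA match and Nes held none of the 3. These matches describe letters in a window and not binding.

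Library totals ran from 10525138 to 27100394 counts. Each member was well counted in every library, from 430 counts for Cdk1 to 15625 counts for Vim. Markers of neurons, vessels, blood, meninges or choroid plexus could not be looked up because no symbol beyond the 7 was paired with an identifier, so the makeup of the dissected pieces and its part in the results below were not tested. Control replicate 3 and high-dose replicate 2 stood apart from the other libraries of their groups. Fitted changes, Pearson's r of pairs and ratios to Sox2 are given with and without them. The spread of each gene, permutation tests, deviations from group means and likeness of other genes to the members are given over all 6 libraries alone.

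High-dose and control forebrains were compared to ask whether transcripts of progenitors and dividing cells change in abundance after maternal FM550. None of the 7 passed the threshold, an adjusted p under 0.05 over all 13617 genes, by edgeR's quasi-likelihood test, where 0.00734% of all tested genes did. None passed by DESeq2 either, adjusted over 15515 genes, where 1.28% did. At an unadjusted p under 0.05 the count was also 0 of 7 by edgeR, against 7.4% of all tested genes. Fitted changes were below 0 in 6 genes (Mki67, at -0.0018, was above 0 with RLE scaling) and above 0 in Sox2, with a median log2 fold change of -0.11, beside 0.0030 over all tested genes. That median turned to 0.085 when high-dose replicate 2 was dropped and to 0.046 when control replicate 2 was, and it was -0.28 when control replicate 3 was dropped. The groups overlapped in all 7 genes, whereas 11.7% of tested genes had groups that did not overlap.

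Sox2 (ENSRNOG00000012199) was at 124, 131 and 84.8 CPM (read counts scaled to a common library total, with TMM factors) in control replicates 1, 2 and 3, and at 153, 109 and 137 CPM in high-dose replicates 1, 2 and 3. High-dose replicates 1 and 3 lay above every control, while high-dose replicate 2 lay below control replicates 1 and 2. The group means were 113 ± 24.9 and 133 ± 22.4 CPM (SD, n = 3 each), and the fitted log2 fold change was 0.23 ± 0.17 (standard error, edgeR adjusted p = 0.985). The 95% interval of the fold ran from 0.888 to 1.54.

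Pax6 (ENSRNOG00000004410) was at 52.5, 55.4 and 39.0 CPM in the controls and 55.8, 28.9 and 48.5 CPM in the high-dose libraries, in replicate order. High-dose replicate 2 held the lowest value of the 6 and control replicate 3 the next lowest. The fitted log2 fold change was -0.14 ± 0.23 (standard error, edgeR adjusted p = 0.999).

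The intermediate filament genes were also lowest in these 2 libraries, with control replicate 3 the lower for Nes and high-dose replicate 2 the lower for Vim. Nes (ENSRNOG00000018681) was at 60.1, 65.1 and 37.8 CPM in controls and 59.8, 37.9 and 53.8 CPM in high-dose libraries. The fitted log2 fold change of Nes was -0.11 ± 0.22 (standard error, edgeR adjusted p = 0.999). Vim (ENSRNOG00000018087) was at 578, 654 and 401 CPM in controls and 572, 337 and 511 CPM in high-dose libraries. Control replicates 1 and 2 were the highest 2 libraries for Vim, and the fitted log2 change was -0.20 ± 0.22 (standard error, edgeR adjusted p = 0.999, 95% interval of the fold 0.616 to 1.23).

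The proliferation genes each have pseudogenes in RefSeq, which could take or lend reads. Mki67 (ENSRNOG00000028137) was at 162, 160.1 and 92.1 CPM in controls and 169, 97.7 and 146 CPM in high-dose libraries. Its group means were 137.9 ± 39.7 and 137.8 ± 36.5 CPM (SD, n = 3 each), and its fitted fold was 0.999 with a 95% interval from 0.677 to 1.47. Pcna (ENSRNOG00000021264) was at 204, 210.1 and 146 CPM in controls and 208, 151 and 188 CPM in high-dose libraries. Its fitted fold was 0.976, with the narrowest interval of the 7 on the log2 scale, -0.39 to 0.32. Cdk1 (ENSRNOG00000000632) was at 55.0, 63.0 and 33.5 CPM in controls and 53.9, 29.0 and 46.2 CPM in high-dose libraries. It had the lowest fitted log2 fold change of the 7, -0.23, and the widest 95% interval on that scale, from -0.84 to 0.38 (edgeR adjusted p = 0.999).

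**Figure D1:**
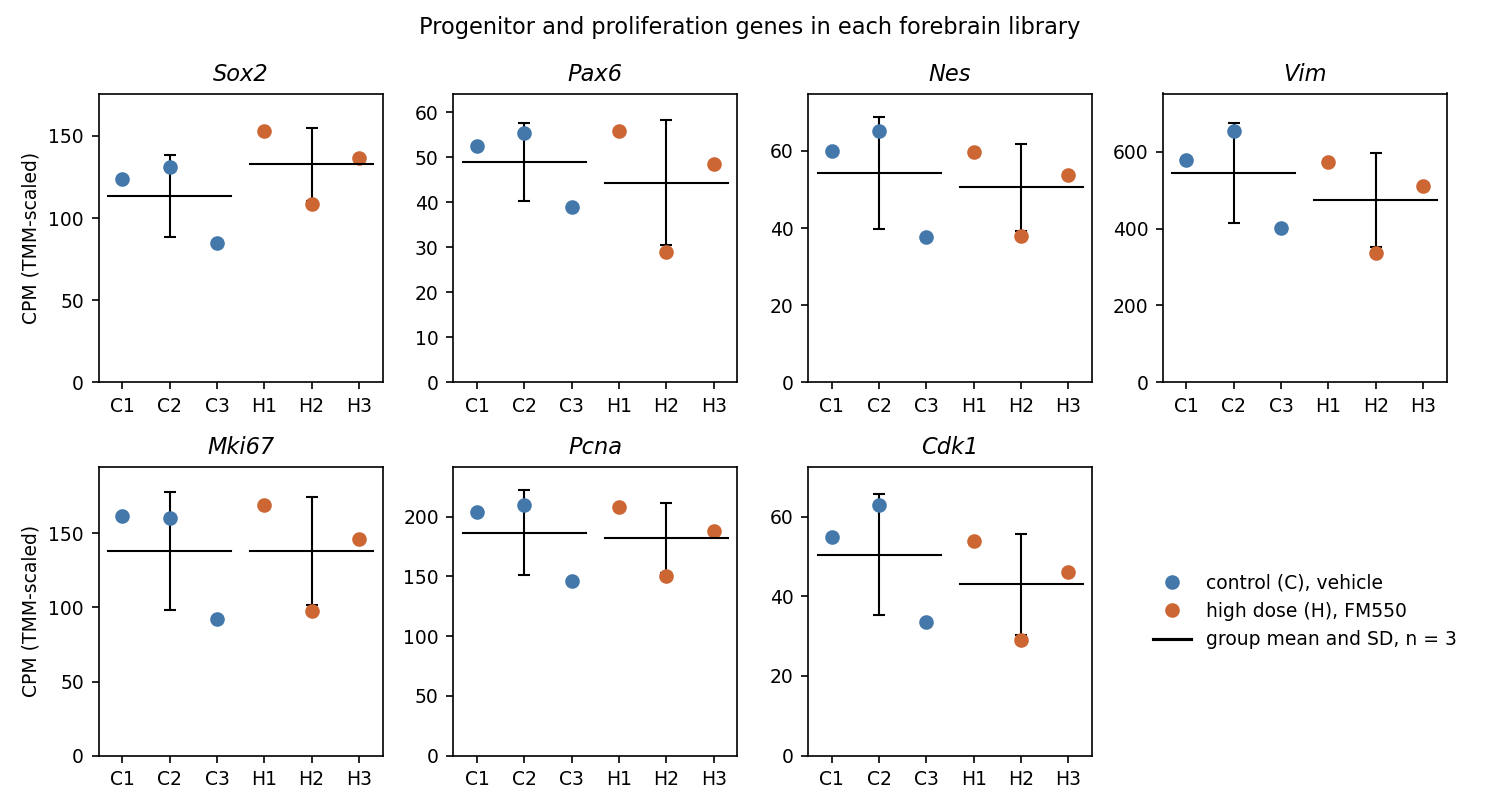
CPM (y axis, linear from 0, separate scale per gene) of the 7 genes in control libraries C1 to C3 and high-dose libraries H1 to H3 (points), with the mean and SD of each group (black, n = 3). In every panel C3 and H2 are the lowest 2 libraries, at 92.1 and 97.7 CPM for Mki67 against 146 to 169 CPM in the other 4.

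Over the 6 libraries of both groups the spread was large for genes so well counted. The coefficient of variation over the 6 libraries ran from 15.8% in Pcna to 28.3% in Cdk1, and the median over all tested genes was 10.9%. Counting error at each gene's lowest count, in control replicate 3, is 4.82% in Cdk1 at 430 counts and 1.39% in Vim at 5153 counts. The highest library exceeded the lowest by 1.44-fold in Pcna, 1.94-fold in Vim and 2.17-fold in Cdk1, against a median of 1.34-fold over tested genes with a count in every library. Within controls and within high-dose libraries this fold was 1.44 and 1.38 in Pcna, 1.63 and 1.70 in Vim and 1.88 and 1.86 in Cdk1. No median over tested genes was computed within groups. Of the variance of log2 CPM, 19.4% lay between the groups in Sox2 and at most 9.74%, in Vim, in the other 6 genes, beside a median of 11.8% over all tested genes.

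The libraries with little of one member had little of them all. Control replicate 3 and high-dose replicate 2 were the lowest 2 libraries in 7 of 7 genes, an order seen in 16.4% of all tested genes. In 16.9% of tested genes they were the highest 2. These 2 libraries were picked with results of these data known. The 7 genes correlated with each other and are not independent, so the count was not tested against that share. As a percentage of each gene's mean over the 6 libraries, control replicate 3 lay between 66.8% (Mki67) and 83.6% (Pax6). High-dose replicate 2 lay between 61.9% (Pax6) and 88.3% (Sox2). The ranges were 100.6% to 118% in control replicate 1, 107% to 135% in control replicate 2, 112% to 124% in high-dose replicate 1 and 98.8% to 111% in high-dose replicate 3. These low libraries had totals of 13019956 and 18408175 counts, within the range of the others, and 1 low library came from each group.

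All 21 pairs of the 7 genes correlated positively across the 6 libraries. Pearson's r of log2 CPM had a median of 0.942 and ran from 0.666 to 0.997, and Spearman's rho had a median of 0.829 and ran from 0.486 to 1. Over all 92704536 pairs of tested genes, 50% had an r above 0, and 10.7% had an r at least as high as the lowest of the member pairs. By exact two-sided permutation tests over the 720 orders of the libraries, with Benjamini-Hochberg adjustment over the 21 pairs, 18 pairs passed for r and 0 for rho. For rho the smallest adjusted p was 0.0583, and 8 pairs had an unadjusted exact permutation p under 0.05. The share of all pairs of tested genes that pass these permutation tests was not computed, so these counts have no background. The 21 pairs share 7 genes and the same 6 libraries, so they are not independent of each other.

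The closest pair was Vim, a filament gene, and Cdk1, a mitotic kinase gene. Their r was 0.997 (exact permutation p = 0.00139, the smallest that 720 orders can give for r, adjusted p = 0.0167) and their rho was 1 (exact permutation p = 0.00278, adjusted p = 0.0583). Nes and Pcna had an r of 0.994 and a rho of 0.943 (exact permutation p = 0.00278 and 0.0167, adjusted 0.0167 and 0.0875). Mki67 and Pcna, which mark cycling cells and DNA replication, had an r of 0.993 and a rho of 0.829 (exact permutation p = 0.00556 and 0.0583, adjusted 0.0167 and 0.111). The lowest values were those of Sox2, with an r of 0.666 to Pax6, 0.693 to Vim and 0.726 to Cdk1, and these 3 pairs did not pass (exact permutation p = 0.160, 0.122 and 0.0958, adjusted 0.160, 0.128 and 0.106). The highest r of a pair with Sox2 was 0.893, to Mki67, and the lowest among the 15 pairs without Sox2 was 0.899.

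The correlations were then computed without the 2 libraries farthest from the median of the first gene of the pair. These were control replicate 3 and high-dose replicate 2 in the 15 pairs without Sox2, and control replicate 3 and high-dose replicate 1 in the 6 pairs with Sox2. All 21 values stayed above 0, from 0.565 to 0.998. With control replicate 3 and high-dose replicate 2 left out of every pair, the 15 pairs without Sox2 had a median r of 0.891 over the remaining 4 libraries. The r of all pairs of tested genes over those 4 libraries was not computed for comparison. The 6 pairs with Sox2 had a median of -0.064 and ran from -0.24, to Cdk1, to 0.322, to Mki67. The r of Sox2 to the other members was thus lower over those 4 libraries than over all 6. An r over libraries of both groups takes in differences between the groups as well as those within a group. Without control replicate 3 and high-dose replicate 2, edgeR fitted Sox2 at a log2 fold change of 0.19. The other members were fitted below 0, from -0.019 (Mki67) to -0.23 (Cdk1). The part of either kind of difference in the lower r was not tested. In the remaining 4, Sox2, Pax6, Nes, Vim, Pcna and Cdk1 were each higher in control replicate 2 than 1 and in high-dose replicate 1 than 3. Mki67 went the other way in the controls, at 162 CPM in replicate 1 and 160.1 CPM in replicate 2. The share of all tested genes with this order was not computed. Deviations from the group means, which remove any difference between the groups, correlated at 0.901 to 0.998 in all 21 pairs. The value was 0.973 for Sox2 and Vim and 0.998 for Sox2 and Pcna. These values still include control replicate 3 and high-dose replicate 2, each the lowest library of its group in all 7 genes. Among all tested genes they were lowest of their group in 39.4% and 39.6%. No deviation r was computed for all pairs of tested genes.

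**Figure D2:**
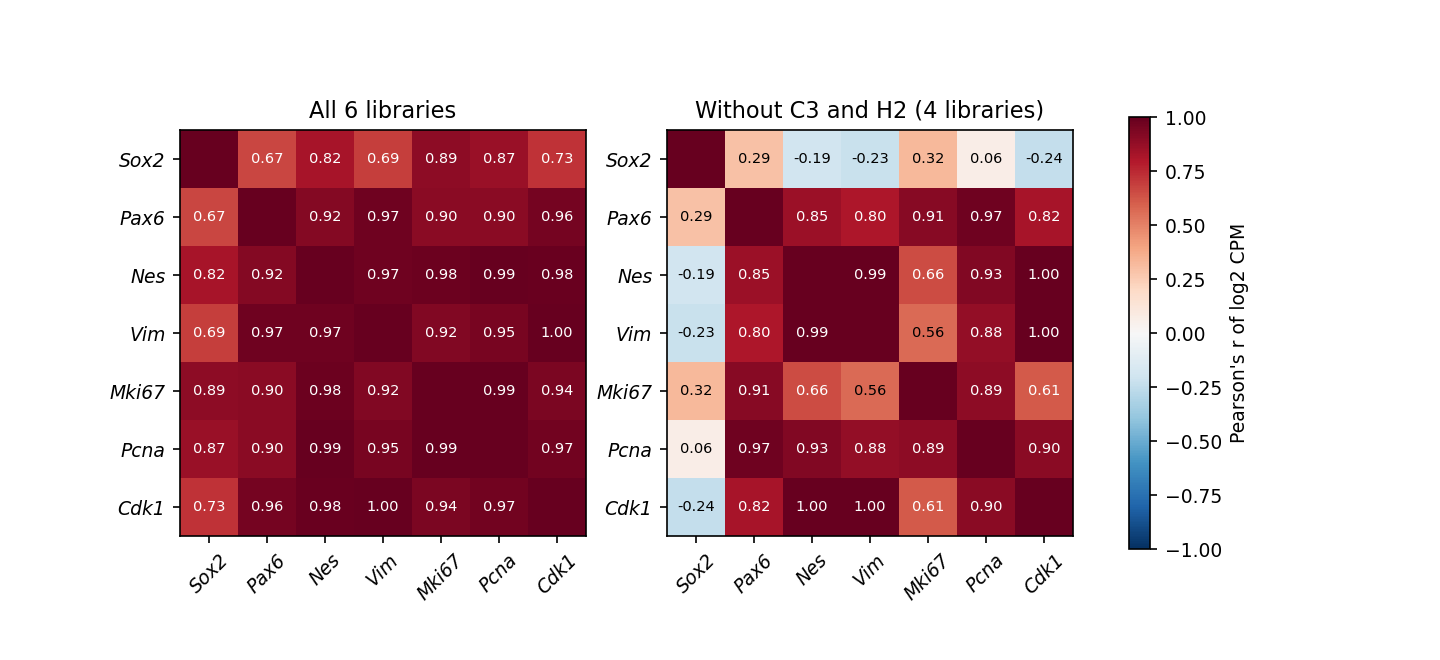
Pearson's r of log2 CPM (colour and number) for each pair of the 7 genes over all 6 libraries (left) and over the 4 libraries left without control replicate 3 (C3) and high-dose replicate 2 (H2) (right). Without them the row of Sox2 falls to between -0.24 and 0.322, while the other pairs stay between 0.565 and 0.998.

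Many other genes shared this pattern. Of 13610 tested genes outside the set, 715 (5.25%) correlated at 0.9 or more with the mean of the members' standardised log2 CPM, and 691 (5.08%) at -0.9 or less. Nes (r = 0.994), Pcna (0.994) and Mki67 (0.988) were closest to this mean among the members, and Sox2 (0.844) was farthest. Each member is part of the mean, which raises its r, so these values do not compare with those of genes outside the set. The most alike gene outside the set, ENSRNOG00000000122 (r = 0.998), was at 44.4, 45.9 and 31.6 CPM in controls and 44.7, 30.9 and 41.5 CPM in high-dose libraries. The next, ENSRNOG00000010721 (r = 0.998), was at 38.7, 42.0 and 22.9 CPM and 43.0, 21.7 and 34.9 CPM. The most opposite gene, ENSRNOG00000006231 (r = -0.998), was at 218, 211 and 278 CPM in controls and 211, 278 and 232 CPM in high-dose libraries, so it was highest where the members were lowest. ENSRNOG00000031890 (r = -0.996) was at 845, 841 and 1076 CPM and 823, 1086 and 897 CPM.

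The other members were also read per unit of Sox2 within each library. The ratio of 2 genes in the same library does not depend on the total or on its scaling. Per unit of Sox2, Vim (ENSRNOG00000018087) was at 4.67, 4.98 and 4.73 in controls and 3.74, 3.11 and 3.74 in high-dose libraries, so the groups did not overlap. The means were 4.79 ± 0.165 and 3.53 ± 0.368 (SD, n = 3 each), and the high-dose geometric mean was 26.6% lower. Cdk1 per unit of Sox2 (ENSRNOG00000012199) was at 0.444, 0.480 and 0.395 in controls and 0.352, 0.267 and 0.338 in high-dose libraries, 27.7% lower.

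Pcna per unit of Sox2 was at 1.65, 1.60 and 1.72 in controls and 1.36, 1.39 and 1.37 in high-dose libraries, 17% lower and with the smallest SD among the high-dose groups, 0.0137. Here control replicate 3 and high-dose replicate 2, which were low in both genes, lay with the other libraries of their own groups. Pax6 per unit of Sox2 (ENSRNOG00000012199) was at 0.424, 0.422 and 0.460 against 0.365, 0.266 and 0.355, 25.2% lower. Nes per unit of Sox2 (ENSRNOG00000012199) was at 0.485, 0.496 and 0.445 against 0.391, 0.349 and 0.394, 20.5% lower. Mki67 overlapped, at 1.31, 1.22 and 1.09 against 1.11, 0.899 and 1.07.

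The groups thus did not overlap for 5 of the 6 ratios to Sox2, each lower in high-dose forebrain, beside 12.7% of 13610 other tested genes with that order and 0.551% with the opposite order. Among the 715 genes at 0.9 or more to the members' mean pattern, the share was 53.4%. Of the 15 ratios without Sox2, 3 did not overlap (Nes to Vim, Vim to Mki67 and Mki67 to Cdk1), beside 13.9% of all pairs of tested genes. For each of the 5 separated ratios the exact two-sided permutation p was 0.100, the smallest that 3 against 3 can give, and for Mki67 it was 0.200. The 6 ratios share Sox2 as their denominator and are not independent, and they were examined after the values had been seen. With control replicate 3 and high-dose replicate 2 left out, the separation held for 6 of 6, but also for 52.8% of other tested genes. With high-dose replicate 2 alone left out, it held for 5 of 6 and for 51.6%.

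**Figure D3:**
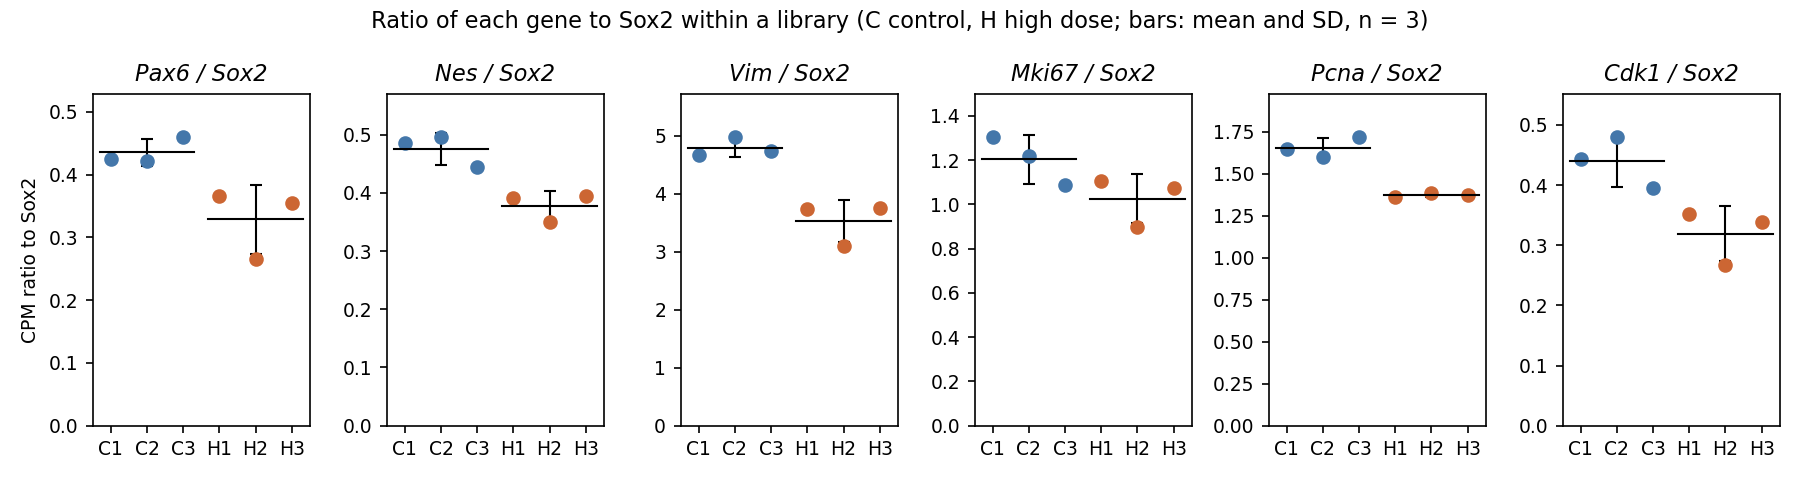
CPM of each gene divided by that of Sox2 in the same library (y axis, linear from 0), in control (C1 to C3) and high-dose (H1 to H3) libraries, with group means and SD (n = 3). For Pcna the controls lie at 1.60 to 1.72 and the high-dose libraries at 1.36 to 1.39, and Mki67 is the gene whose groups overlap.

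A surrogate variable, a score per library estimated from all tested genes to absorb variation that the groups do not explain, was added to the fit. It set high-dose replicate 2 (-0.73) and control replicate 3 (-0.37) apart from the other libraries (0.16 to 0.38). The score was not balanced between the groups, being lower on average in the high-dose libraries. Each of the 7 members had a higher fitted change with the score than with group alone, such as 0.36 against 0.23 in Sox2 and -0.027 against -0.23 in Cdk1. In that fit Sox2 was higher in high-dose forebrain, by 0.36 ± 0.07 on the log2 scale (standard error, edgeR adjusted p = 0.0129), where 0.793% of all tested genes were called higher and 2.04% in either direction. The other 6 members did not pass. Mki67 was nearest, at 0.19 ± 0.07 on the log2 scale (standard error, edgeR adjusted p = 0.240, unadjusted p = 0.0157), and Vim (ENSRNOG00000018087) was at -0.039 and Cdk1 at -0.027. The score was estimated from a table that includes the members, and the call of Sox2 was made in no other fit that was run. The libraries that the score set apart were the lowest 2 in all 7 members. The standard error of Sox2 fell from 0.17 with group alone to 0.07. The adjusted p of Sox2 in that fit was therefore not read as support for a change.

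With control replicate 3 and high-dose replicate 2 left out instead, no member passed, while 3.02% of all tested genes did. On the log2 scale Sox2 was fitted at 0.19 ± 0.07 (standard error, edgeR adjusted p = 0.210), Vim at -0.18 ± 0.07 (adjusted p = 0.264) and Cdk1 at -0.23 ± 0.10 (adjusted p = 0.313). These 3 had an unadjusted p under 0.05 in that fit of 2 libraries a group, as did 13.4% of all tested genes. The libraries left out were the lowest 2 in all 7 members, so the members' own extreme values were removed. The standard error of Sox2 fell from 0.17 to 0.07 and that of Vim from 0.22 to 0.07. These p-values were therefore not read as support for a change. Leaving out single libraries moved Sox2 from 0.058, when control replicate 3 was dropped, to 0.35, when high-dose replicate 2 was dropped. Vim moved from -0.38 to -0.0062 with the same libraries dropped.

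**Figure D4:**
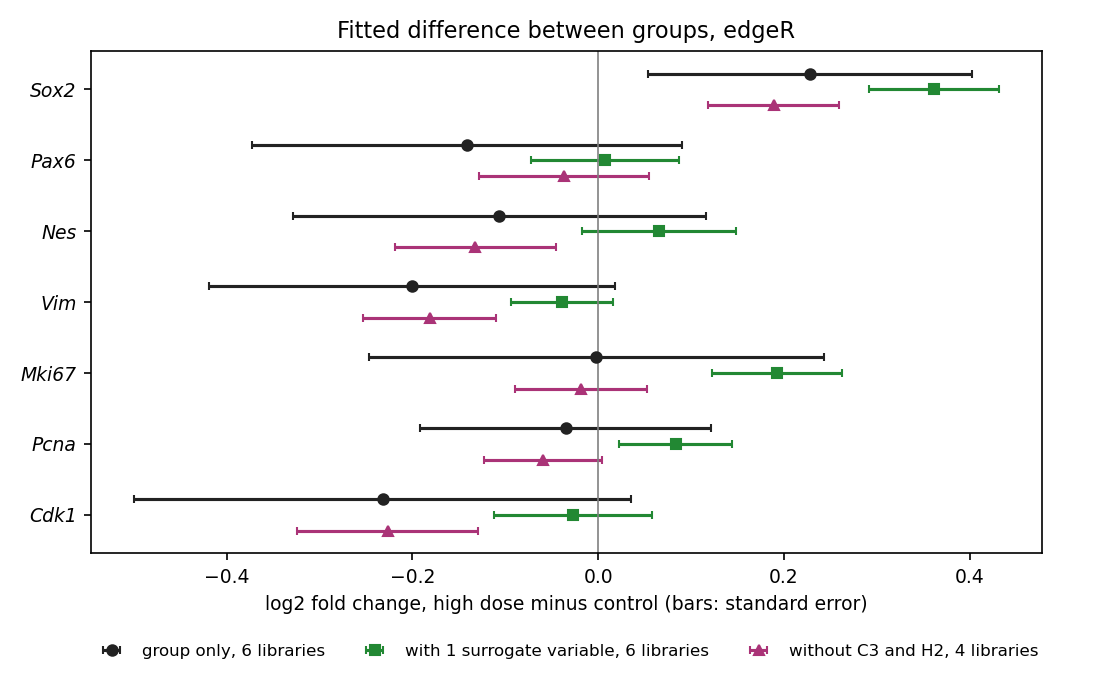
Log2 fold change, high dose minus control (x axis), with its standard error (bars) for the 7 genes by edgeR with group alone (circles), with 1 surrogate variable (squares) and without control replicate 3 (C3) and high-dose replicate 2 (H2) (triangles). Sox2 lies above 0 in each, at 0.23, 0.36 and 0.19, and passed the adjusted threshold with the surrogate variable alone.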

How the data were processed

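Poly(A) RNA of 6 forebrains was sequenced as strand-marked libraries, per the labels' protocols. The authors deposited raw, whole-number read counts, made with STAR and HTSeq on build rn6 per the submitters' processing notes. For versions, annotation and strand setting: not given in the sources used here. RefSeq (GRCr8) lists 3 pseudogenes of Pcna and 1 each of Mki67 and Cdk1, so counts of these genes could be affected by shared reads. If counting ignored strand, reads of overlapping antisense genes cannot be told apart.

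Genes were kept by filterByExpr (minimum count 10, minimum total 15). The test was edgeR 4.0.16 (limma 3.58.1, R 4.3.3), robust quasi-likelihood, TMM, group as the only term, Benjamini-Hochberg over all genes tested, threshold 0.05. Standard errors are the size of the log2 fold change over the square root of F. CPM used TMM-scaled totals, and log2 CPM a prior count of 2. Alternatives used DESeq2 1.42.0, limma-voom, sva 3.50.0, other scalings and filters, the replicate number as a block, and left-out libraries. Deviations of libraries 1, 2 and 3 from their group means correlated between groups at 0.227, -0.27 and -0.21, so no pairing by number was assumed. The edgeR test with group as the only term and the correlation test were tested on simulated data. The alternative fits were not.

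The named genes were the 7 members and the 2 most alike and 2 most opposite genes by correlation with the members' mean pattern. Members, lists and tests were chosen with earlier results of these data known. Lists of other progenitor, cell cycle and cell type genes could not be matched, since 0 entries of the reference table carry an Ensembl identifier, and were not analysed here.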

Additional observations from a re-analysis of the deposited data

How the results depend on the processing

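No member passed the threshold in 14 of 15 alternative fits. With 1 surrogate variable the count was 1, Sox2, at a log2 fold change of 0.36. The number of all tested genes past it was 1 as reported, 198 with DESeq2, 26 with no low-count filter, 278 with 1 surrogate variable, 412 when control replicate 3 and high-dose replicate 2 were left out, and 0 to 24 with single libraries left out, 24 of them without control replicate 3. With a replicate block it was 0, no member passed, and no other call of a member changed. Sox2 stayed above 0 and Vim and Cdk1 below 0 in all 15. Mki67, fitted at -0.0018, turned to 0.0028 with DESeq2, 0.0046 with limma-voom, 0.0016 with RLE factors, 0.0036 with the replicate block and 0.19 with 1 surrogate variable. That last fit also turned Pax6 to 0.0076, Nes to 0.066 and Pcna to 0.084. With single libraries left out, Mki67 ran from -0.22 to 0.20, Pax6 from -0.35 to 0.094, Nes from -0.31 to 0.065 and Pcna from -0.18 to 0.085. The cause was not tested. The median r of the 21 pairs was 0.829 by Spearman's rho, 0.936 to 0.976 with single libraries left out, and 0.823 with control replicate 3 and high-dose replicate 2 left out, where 18 pairs were above 0. In the other 12 alternatives all 21 were. The ratios to Sox2 and their alternatives were chosen after seeing the data. Counting error was at most 4.82% for a member, and 3 libraries a group limit every interval.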
